A study of Mus musculus with 12 samples.

Results

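Simple keratins and markers of epithelial and mesothelial cells were read in mouse embryonic fibroblasts (MEFs), connective tissue cells in which such genes are usually scarce. The genes are the keratins Krt7, Krt8, Krt18 and Krt19, the epithelial adhesion genes Epcam and Cdh1, and the mesothelial markers Upk3b and Msln, 8 genes of 34866 in the deposited table. They were chosen with earlier results of these same libraries in view, from the pattern of their TPM (a level per transcript length, scaled to the same total in every library) over the 4 groups. The values of the 8 genes are therefore given as a description, without a p-value, and nothing is supported with them. All 8 were found under 1 identifier each. Averaged over all 12 libraries, 5 reached at least 1 TPM and entered the fit with 12504 genes in all, while Krt8, Cdh1 and Upk3b lay below that level.

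Polyadenylated RNA was sequenced from 4 groups with 3 libraries each, WT and KO of each sex. WT cells came from 129S1/SvImJ mice, KO cells from a Sirt3 KO stock, and Sirt3 encodes a mitochondrial deacetylase. MEFs of all groups were prepared from single embryos at day 13, immortalized with a plasmid carrying SV40 T-antigen, and used at passage 6, with RNA taken 48 h after seeding into triplicate wells. The number of embryos or lines behind each group is not stated, so p-values measure the spread between these libraries, which may be technical, and genotype, sex, strain and line cannot be told apart. In bulk RNA, fewer cells of a type and less RNA per cell cannot be told apart either.

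Simple keratins are the intermediate filament proteins of single-layered epithelia and of the mesothelium, the sheet that lines body cavities. Each filament is built from a type I chain (Krt18 or Krt19) paired with a type II chain (Krt8 or Krt7). Epcam and E-cadherin, the product of Cdh1, hold epithelial cells together. Mesothelin, the product of Msln, and uroplakin 3b, the product of Upk3b, are surface proteins used as marks of mesothelial cells. Transcription factors of the Snail and Zeb families are known to bind a short E-box and to repress epithelial genes.

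The libraries were read against their labels first. Sirt3 mRNA was not lower in the libraries labelled KO, at 7.61 ± 1.30 TPM in male WT, 10.3 ± 1.20 in male KO, 7.90 ± 0.695 in female WT and 8.27 ± 0.749 in female KO (SD, n = 3 each). A gene-level TPM cannot show whether the deleted part is missing from the mRNA, so these values do not check the labels. KO below means the libraries labelled KO. Pearson's r of log2(TPM+1) between replicates ran from 0.982 to 0.985, no columns were identical, and the labels name no sequencing batch. Vim, an intermediate filament gene of mesenchymal cells, was between 2995 and 3113 TPM in the 4 group means. By itself it does not tell fibroblasts from other mesenchymal cells. Of other fibroblast genes, Col1a1 was between 2127 and 4807 TPM in the group means, and Lum between 0.0960 and 0.375.

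Promoters are shown for the keratin partners Krt18 and Krt8 and for Epcam, since Snail and Zeb factors, which read the E-box, were measured in the same libraries. Krt8 (chromosome 15 of GRCm38, 101996698 to 102004482, minus strand) and Krt18 (chromosome 15, 102028180 to 102032027, plus strand) point away from each other, with 23698 bases between their annotated 5′ ends. Each window runs from 250 bases before to 50 bases after the gene start in RefSeq (GRCm38.p6), 5′ to 3′ on the gene's strand, with the E-box CAGGTG, or CACCTG as it reads from the other strand, in capitals.
Krt18 (chr15:102027966-102028265, plus strand): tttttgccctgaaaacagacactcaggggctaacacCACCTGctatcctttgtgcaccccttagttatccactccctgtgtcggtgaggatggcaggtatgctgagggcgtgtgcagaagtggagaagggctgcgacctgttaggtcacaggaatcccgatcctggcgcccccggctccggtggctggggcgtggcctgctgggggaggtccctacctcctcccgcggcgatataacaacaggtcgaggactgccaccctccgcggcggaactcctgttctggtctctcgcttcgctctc
Krt8 (chr15:102004293-102004592, minus strand): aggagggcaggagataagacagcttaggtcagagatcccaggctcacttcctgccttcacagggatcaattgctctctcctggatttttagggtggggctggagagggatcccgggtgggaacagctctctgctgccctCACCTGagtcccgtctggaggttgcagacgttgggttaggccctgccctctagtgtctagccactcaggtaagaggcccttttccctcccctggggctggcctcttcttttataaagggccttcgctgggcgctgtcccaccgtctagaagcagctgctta
Epcam (chr17:87635729-87636028, plus strand): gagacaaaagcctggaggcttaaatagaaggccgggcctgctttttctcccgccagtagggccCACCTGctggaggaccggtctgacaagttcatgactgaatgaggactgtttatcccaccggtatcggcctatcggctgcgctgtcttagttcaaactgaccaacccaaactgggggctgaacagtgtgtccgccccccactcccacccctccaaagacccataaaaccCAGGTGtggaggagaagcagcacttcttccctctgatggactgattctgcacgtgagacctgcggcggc

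The E-box began 214 bases before the start of Krt18, 111 bases before that of Krt8, and 187 and 19 bases before that of Epcam. Of the 5 genes with a window, Krt7 also held it, 44 bases before its RefSeq start, and Upk3b did not. The Krt7 window (chr15:101412153-101412452) lies inside the span given for the gene below, whose 5′ end is at 101411043. For comparison, 20.2% of the 32851 promoter windows of the table held these letters. A match is a description of the letters and not evidence of binding.

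Of the keratins, Krt19 had the highest mean TPM over the 12 libraries. Krt19 (chromosome 11, 100140810 to 100148665, minus strand), the shortest of the keratins and one that pairs with several type II chains, was 67.2, 68.1 and 66.4 TPM in the male WT libraries and 7.30, 8.17 and 6.94 in the male KO libraries. In females it was 13.4, 16.0 and 15.0 TPM in WT and 5.15, 5.82 and 8.35 in KO. Male WT stood far above every other group, WT stood above KO in both sexes without overlap, and the male and female KO libraries overlapped. The mean of male KO was 0.111 times that of male WT, the mean of male WT was 4.55 times that of female WT, and the mean of female WT was 2.29 times that of female KO. Over the 12 libraries its mean TPM, which male WT raised, was above that of 73.2% of all detected genes. The means of the other groups were 14.8 TPM in female WT, 7.47 in male KO and 6.44 in female KO, so Krt19 was not a trace transcript.

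Krt18, the usual partner of Krt8 in simple epithelia, was 8.48, 6.52 and 7.42 TPM in male WT against 0.293, 0.203 and 0.591 in male KO. In females it was 3.76, 3.59 and 5.18 TPM in WT and 0.943, 1.07 and 0.833 in KO. The groups ran in the order male WT, female WT, female KO and male KO, and no neighbours in that order overlapped. The mean of male WT was 20.6 times that of male KO, and the mean of female WT was 4.40 times that of female KO.

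Of the type II chains, Krt8 was 0.245, 0.323 and 0.292 TPM in male WT against 0, 0.0702 and 0 in male KO, with 0.379, 0.121 and 0 in female WT and 0.0543, 0.171 and 0.0639 in female KO. The male groups did not overlap, the female groups did, and every value lay below 0.4 TPM, so Krt18 mRNA was present in WT libraries with little mRNA of its usual partner. Krt7 (chromosome 15, 101411043 to 101430313, plus strand), the type II chain of ducts and mesothelium, was 1.59, 2.25 and 3.30 TPM in male WT against 1.44, 1.58 and 2.93 in male KO. In females it was 0.926, 2.32 and 0.360 TPM in WT and 0.325, 0.418 and 0.947 in KO. Its KO and WT libraries overlapped in both sexes, and the clearest step was between the sexes in KO, where every male library lay above every female one.

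Near-identical copies could take reads from these keratins. Of annotated transcripts, Krt8-ps matched Krt8 at 98.6% identity over 941 bases, and Gm5200 (90.5%) and Gm17847 (86.5%) matched Krt18, and all 3 pseudogenes were at 0 TPM in every library. One transcript of Krt7 shared a stretch of at least 150 bases with transcripts of 724 other genes, so its level is uncertain.

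The adhesion genes differed in level. Epcam (chromosome 17, 87635979 to 87651129, plus strand) was 1.46, 2.59 and 1.78 TPM in male WT against 0.289, 0.335 and 0.445 in male KO. In females it was 2.07, 2.94 and 2.18 TPM in WT and 1.14, 0.651 and 0.792 in KO. WT lay above KO without overlap in both sexes, by 5.46 times in males and 2.78 times in females, the WT sexes overlapped, and male KO lay below female KO. Cdh1 (chromosome 8, 106603351 to 106670246, plus strand) ran from 0.0374 to 0.395 TPM in male WT, 0 to 0.0854 in male KO, 0.10 to 0.151 in female WT, and 0.0327 to 0.114 in female KO. KO and WT overlapped in both sexes, male KO lay below female WT, and every value of this E-cadherin gene was below 0.4 TPM.

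The mesothelial markers had the highest ratios of the male WT mean to the male KO mean among the 8 genes. The ratio was 52.2 for Upk3b, whose values lay near 0, and that of Msln was close to the 20.6 of Krt18. Msln (chromosome 17, 25748613 to 25754378, minus strand) was 25.4, 31.7 and 28.9 TPM in male WT against 1.81, 1.03 and 1.07 in male KO. In females it was 13.5, 11.6 and 12.8 TPM in WT and 5.91, 5.26 and 5.73 in KO. The order was that of Krt18, again with no overlap between neighbours, and the mean of WT was 22.1 times that of KO in males and 2.24 times in females. Upk3b (chromosome 5, 136038496 to 136046487, plus strand) was 0.635, 0.303 and 0.636 TPM in male WT against 0, 0 and 0.0301 in male KO. It was listed at 0 in all 3 female KO libraries and in 2 of 3 female WT libraries, with 0.0561 TPM in the other one, so male WT was the one group with a clear signal.

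**Figure D1:**
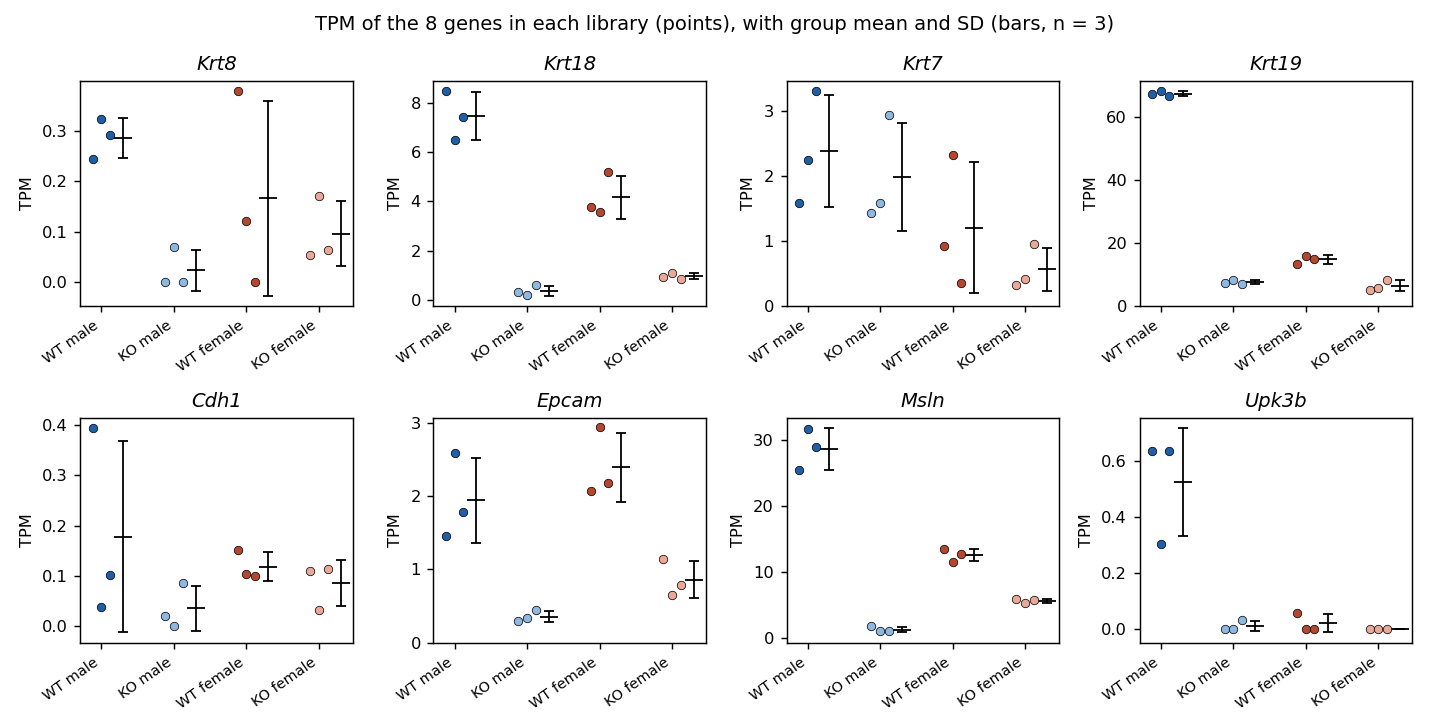
TPM of each gene (vertical axis, linear, its own range in each panel) in every library of the 4 groups (points), with the group mean and SD beside them (n = 3). Krt19, Krt18 and Msln are highest in male WT, where Krt19 is 67.2 ± 0.852 TPM, and the KO and WT libraries of Krt7 and Cdh1 overlap in both sexes.

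On the log2(TPM+1) scale, which understates the change of low genes, the difference between male KO and male WT was -3.70 (standard error 0.16) for Msln, -3.01 (0.074) for Krt19, -2.64 (0.17) for Krt18, -1.10 (0.21) for Epcam and -0.18 (0.27) for Krt7. Between female KO and female WT it was -1.40 (standard error 0.17) for Krt18, -1.10 (0.17) for Krt19, -1.04 (0.096) for Msln, -0.87 (0.18) for Epcam and -0.42 (0.36) for Krt7. The order of the genes thus differed, with Msln first in males and Krt18 first in females. In each sex 4 of the 5 genes fitted had an adjusted p under 0.05 and were lower in KO, where 10.9% of all genes tested were called lower in males and 5.84% in females. None of the 5 was called higher, against 10.7% of all genes in males and 5.63% in females. Of all 8 genes, 6 were lower in male KO without overlap and 4 in female KO, beside 21.2% and 18.7% of the genes tested. Since the genes were selected on these values, nothing is read from those counts.

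**Figure D2:**
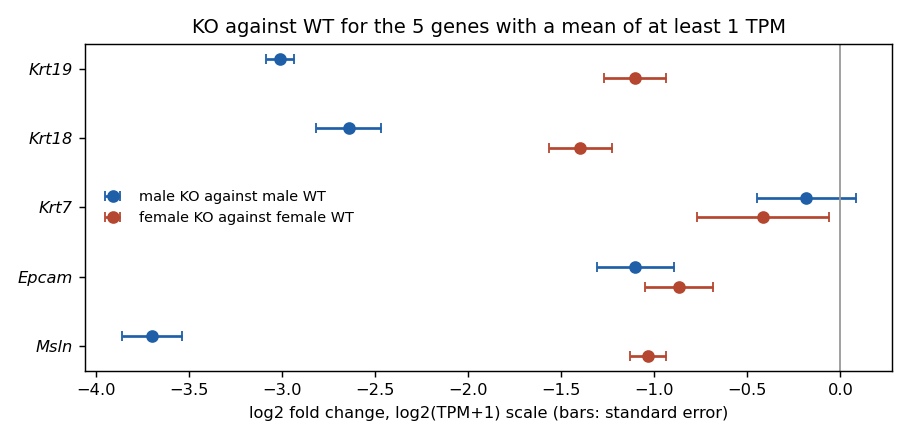
Log2 fold change of KO against WT on the log2(TPM+1) scale (horizontal axis) for the 5 genes that reached 1 TPM on average, for each sex, with standard errors. The male differences of Msln (-3.70), Krt19 (-3.01) and Krt18 (-2.64) lie left of the female ones, and those of Epcam and Krt7 lie close together.

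The male difference minus the female difference, from 1 fit of all 12 libraries, was -2.66 (standard error 0.19) for Msln, -1.91 (0.19) for Krt19, -1.24 (0.24) for Krt18, -0.24 (0.27) for Epcam and 0.23 (0.47) for Krt7. The WT lines already differed by sex: male minus female was 2.12 (standard error 0.071) for Krt19, 1.12 (0.10) for Msln, 0.72 (0.16) for Krt18, 0.68 (0.36) for Krt7 and -0.21 (0.20) for Epcam. Of the 8 genes, 4 were higher in male WT than in female WT without overlap, beside 14.9% of the genes tested. The 4 include Upk3b, which was not among the genes tested. In KO the sexes stood closer for Krt19 (0.21, standard error 0.17) and opposite in sign for Msln (-1.54, 0.17) and Krt18 (-0.53, 0.20), while Krt7 was 0.92 (0.26) and Epcam -0.45 (0.20). For Msln and Krt18 male cells were therefore the upper group in WT and the lower group in KO. Each group enters more than 1 of these comparisons, so they are not independent of each other.

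With a pseudocount of 0.1 in place of 1, the differences of the low genes grew. Krt18 was then -4.11 in males and -2.01 in females, Epcam -2.14 and -1.39, and Msln -4.40 in males.

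Across the 12 libraries, Pearson's r of log2(TPM+1) was 0.951 between Krt18 and Msln, 0.882 between Krt18 and Krt19, 0.857 between Msln and Epcam and 0.838 between Msln and Krt19. Krt7 stood apart, with r from 0.0919 with Epcam to 0.521 with Krt19. The libraries fall into 4 groups, so these r values mostly describe group means. They are given as a description only.

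Keratin filaments need both chain types, so the keratins averaging at least 1 TPM were summed by type together with Krt8. The type I sum (Krt10, Krt18 and Krt19) ran from 78.8 to 81.8 TPM in male WT, 12.1 to 15.1 in male KO, 22.3 to 24.3 in female WT, and 10.3 to 13.7 in female KO. The type II sum (Krt7, Krt8 and Krt80) ran from 15.4 to 17.9 TPM in male WT, 8.77 to 11.9 in male KO, 7.76 to 13.2 in female WT, and 6.83 to 19.4 in female KO. The ratio of type I to type II mRNA was 4.88 ± 0.445 in male WT, 2.24 ± 0.776 in female WT, 1.39 ± 0.320 in male KO and 1.09 ± 0.399 in female KO (SD, n = 3 each). Krt19 alone made up 84.3 ± 2.12% of the type I sum in male WT and between 49.5% and 66.8% in the other libraries. WT male cells thus held an excess of type I mRNA that rested on Krt19, and the ratios of the other groups lay between 0.706 and 3.13.

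**Figure D3:**
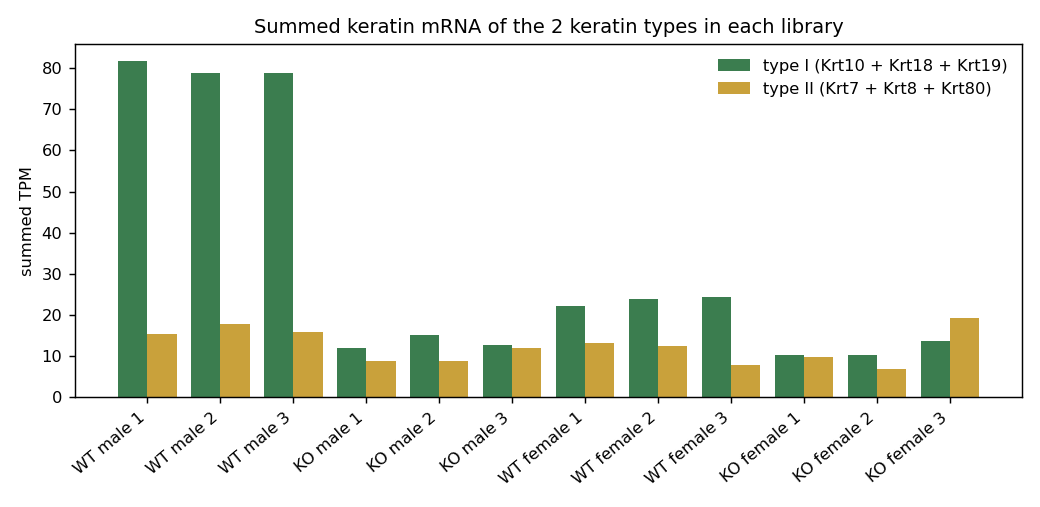
Summed TPM (vertical axis, from 0) of 3 type I keratins and of 3 type II keratins in each of the 12 libraries. The type I bars reach 78.8 to 81.8 TPM in male WT and at most 24.3 TPM elsewhere, and the type II bars stay between 6.83 and 19.4 TPM.

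Of 54 keratin genes in the table, 17 were at 0 in every library, 37 were above 0 in at least 1, and 7 reached 1 TPM in any library. The 5 that averaged at least 1 TPM were Krt19, Krt80, Krt10, Krt18 and Krt7. Krt80, a type II chain of many epithelia, fell in male KO (7.85 ± 0.986 TPM against 13.8 ± 1.45, SD, n = 3 each, log2 fold change -0.74, standard error 0.12, limma adjusted p = 0.00587) but not past the threshold with all 12 libraries in 1 fit (limma adjusted p = 0.0804). The female log2 fold change was 0.095 (adjusted p = 0.897 by limma), with an SD of 6.28 TPM in female KO. Krt10, a type I chain of the upper layers of skin, passed in neither sex, at 0.090 (male) and -0.14 (female). The basal keratins Krt5 and Krt14 of stratified epithelia stayed below 0.3 TPM in every library.

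Other genes of epithelial cells came from lists written with earlier results of these data known. Of all genes tested, 10.9% were called lower and 10.7% higher in male KO, and 5.84% and 5.63% in female KO. These shares stand beside each list count below, and no count is read against them, since the lists were so written. Of 24 genes of adherens and tight junctions, 15 were tested. In male KO 7 fell and 1 rose, and in female KO 4 fell and 1 rose. Without WT replicate 2 or 3 or KO replicate 3, 4 fell in male KO, and the 1 that rose there did not pass without KO replicate 3. Without WT replicate 1 or 3 or KO replicate 2 or 3, 2 fell in female KO. The list median was -0.15 (male) and -0.22 (female) on the log2 scale, beside -0.015 and -0.022 over all genes tested. F11r, which encodes the junctional adhesion molecule JAM-A, fell from 29.0 ± 3.14 to 13.6 ± 2.79 TPM in male KO (log2 fold change -1.05, limma adjusted p = 0.00362) and from 33.8 ± 2.22 to 20.8 ± 1.41 in female KO (-0.68, limma adjusted p = 0.00287; SD, n = 3 each). Pard6b, a cell polarity gene, fell by 1.08 on the log2 scale in male KO (limma adjusted p = 3.83e-04) and by 0.82 in female KO (adjusted p = 0.00555 by limma). Cgn, which encodes the tight junction protein cingulin, fell from 3.55 ± 0.115 to 0.446 ± 0.153 TPM in male KO (-1.66, limma adjusted p = 5.85e-04). It passed narrowly in female KO (-0.53, limma adjusted p = 0.0484), where leaving out any of the 6 libraries ended the call (adjusted p from 0.0787 to 0.132). Afdn, which ties nectins to actin, changed by -0.67 in male KO (limma adjusted p = 0.0323) and did not pass without WT replicate 1, 2 or 3 or KO replicate 3 (adjusted p of at least 0.0584). Cdh3, the gene of P-cadherin, rose in female KO from 10.7 ± 0.538 to 20.3 ± 1.08 TPM (0.86, limma adjusted p = 0.00106). It was also the 1 that rose in male KO, from 10.4 ± 0.837 to 15.1 ± 1.23 TPM (0.49, limma adjusted p = 0.0133).

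Desmosomes anchor keratin filaments, and 12 of the 17 listed genes of desmosomes and keratin linkers were tested. In male KO 3 fell and 2 rose, and in female KO 2 fell and 2 rose. Leaving out any 1 female library left 1 that rose, and leaving out any but KO replicate 3 left 1 that fell. Jup, which encodes plakoglobin, fell from 76.5 ± 5.72 to 39.4 ± 3.95 TPM in male KO (log2 fold change -0.94, limma adjusted p = 4.77e-04) and from 112.1 ± 4.22 to 83.1 ± 4.32 in female KO (-0.43, limma adjusted p = 0.00373). Perp, a membrane protein of desmosomes, changed by -1.68 in male KO (limma adjusted p = 6.01e-04) and by -0.82 in female KO (adjusted p = 0.0294 by limma), the latter lost without any 1 of 5 libraries (all but KO replicate 3, adjusted p from 0.0611 to 0.0966). Itga6, the integrin chain of hemidesmosomes, fell from 111.7 ± 1.56 to 55.5 ± 2.29 TPM in male KO (-0.997, limma adjusted p = 2.32e-05). Pkp1, a plakophilin, went the other way, from 2.48 ± 0.488 to 5.27 ± 0.528 TPM in male KO (0.86, limma adjusted p = 0.00845) and from 4.004 ± 0.222 to 15.0 ± 1.22 in female KO (1.68, limma adjusted p = 2.17e-04). Pkp2 rose by 0.35 in female KO (limma adjusted p = 0.0198), a call that was lost without any 1 of the 6 libraries (adjusted p of at most 0.0664). The median over the 12 genes was 0.061 in males and -0.022 in females, so the list did not move 1 way.

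Of 20 genes of the epithelial surface and of epithelial splicing, 12 were tested, and in each sex 4 fell and 1 rose. In female KO 2 fell without WT replicate 1 or 2 or KO replicate 2 or 3. The median was -0.47 in male and -0.53 in female KO. Sdc1, the most abundant gene of the list, was the 1 that rose in each sex. It went from 129.1 ± 5.31 to 159.0 ± 6.11 TPM in male KO (0.30, limma adjusted p = 0.00569). In female KO it went from 115.6 ± 2.69 to 148.9 ± 0.252 TPM (0.36, limma adjusted p = 9.72e-04). Spint2, an inhibitor of membrane serine proteases, fell from 10.1 ± 1.53 to 5.84 ± 0.0853 TPM in male KO (-0.69, limma adjusted p = 0.00847) and from 9.17 ± 0.797 to 3.17 ± 0.823 in female KO (-1.30, limma adjusted p = 0.00452). Its relative Spint1 (-0.93, limma adjusted p = 0.00303) and Ezr, the gene of the microvillus linker ezrin (-0.72, limma adjusted p = 0.00274), passed in male KO. Cd24a, a surface glycoprotein gene, passed in female KO (-0.54, limma adjusted p = 5.86e-04). Cxadr, a junctional receptor gene, was -0.56 in male KO (adjusted p = 0.0325 by limma) and -0.73 in female KO (adjusted p = 0.0159 by limma). Its male call was lost without WT replicate 2 or 3 or KO replicate 1 or 2 (adjusted p from 0.0835 to 0.101), and its female call without any library but WT replicate 3 (adjusted p from 0.0504 to 0.0622). Esrp2, a splicing regulator of epithelia, was -1.22 in female KO (limma adjusted p = 0.0352), lost without any 1 of the 6 libraries (adjusted p from 0.0556 to 0.0908).

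Transcription factors of epithelia were mostly scarce, and 3 of 16 were tested. Klf5, a regulator of epithelial growth, fell from 34.4 ± 1.33 to 22.1 ± 2.66 TPM in male KO (-0.62, limma adjusted p = 0.00402) and from 30.5 ± 2.84 to 20.7 ± 0.302 in female KO (-0.53, limma adjusted p = 0.00750). Tfap2a, a factor of surface ectoderm and neural crest, rose in female KO (1.31, limma adjusted p = 0.00960). It was 0.64 in male KO (limma adjusted p = 0.0479), a call that ended without any 1 of the 6 libraries (adjusted p from 0.0505 to 0.136). Grhl2, a keeper of the epithelial state, was below 0.3 TPM in the mean of every group. Other scarce factors that did not enter the fit moved both ways in male KO, without overlap with male WT. The mean rose for Elf3 (0 to 0.647 TPM), Foxa1 (0 to 1.001), Grhl1 (0.298 to 0.578) and Trp63 (0.0235 to 0.178). It fell for Ovol1 (0.299 to 0.0145 TPM) and Foxa2 (0.6335 to 0). Over the 6 lists of epithelial genes, keratins included, 44 of 92 genes were tested, of which 16 fell and 5 rose in male KO and 11 fell and 5 rose in female KO. The shares of all genes tested were 10.9% lower and 10.7% higher in male KO, and 5.84% and 5.63% in female KO. The female count of 11 came to 6 without WT replicate 1 or KO replicate 2 and to 7 without WT replicate 2 or 3 or KO replicate 3, and 3 rose in male KO without KO replicate 3. The medians of the 44 genes were -0.072 in males and -0.16 in females.

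Of 18 other mesothelial genes listed, 8 were tested, with 3 higher and 2 lower in male KO and 3 lower in female KO. Without KO replicate 1 or 3, 1 gene was higher in male KO. The list median was -0.13 in male KO and -0.52 in female KO, beside the -0.015 and -0.022 of all genes. Wt1, a transcription factor of mesothelium and kidney, rose from 1.46 ± 0.418 to 4.83 ± 1.04 TPM in male KO (1.25, limma adjusted p = 0.00592) and fell from 3.34 ± 0.538 to 0.479 ± 0.206 in female KO (-1.56, limma adjusted p = 0.00337). Aldh1a2, an enzyme of retinoic acid synthesis, fell in female KO from 3.19 ± 0.811 to 0.0674 ± 0.0353 TPM (-1.95, limma adjusted p = 0.00191). In male KO it was 1.003 ± 0.123 TPM against 0.121 ± 0.0301 (0.84, limma adjusted p = 0.0202), a call lost without WT replicate 3 or KO replicate 1 or 3 (adjusted p from 0.0529 to 0.0593). Sulf1, which trims heparan sulfate, fell in male KO (-1.29, limma adjusted p = 3.60e-05) and female KO (-0.66, adjusted p = 9.59e-04 by limma), and Podxl, which encodes podocalyxin, fell in males (-1.40, limma adjusted p = 0.00151). Gata6 was 0.91 in male KO (limma adjusted p = 0.0216), lost without any library but WT replicate 3 (adjusted p from 0.0552 to 0.0634). Among genes below the filter, Upk1b was 1.11 ± 0.112 TPM in male WT, 0.107 ± 0.138 in male KO, 0.923 ± 0.0256 in female WT and 0.113 ± 0.108 in female KO, a plain low level in KO of both sexes that was not tested here. Not all of them went this way. The mean of Bnc1 went from 0.600 to 0.123 TPM in male KO but from 0.187 to 1.05 in female KO. Lrrn4 (0.663 to 0.0762 TPM) and Rspo1 (0.906 to 0.104) were lower in male KO. In female KO they were not (0.0553 to 0.0764 and 0.249 to 0.293). The summed TPM of the 18 genes ran from 101 to 110.2 in male WT, 55.0 to 61.2 in male KO, 78.5 to 89.8 in female WT and 49.3 to 58.6 in female KO. Sulf1, the most abundant of the 18, was the largest part of this sum in every group. Its mean dropped with KO from 76.2 to 30.7 TPM for males and from 47.1 to 29.4 for females. The sum therefore mostly follows Sulf1 and is not read as a fall of the list as a whole.

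**Figure D4:**
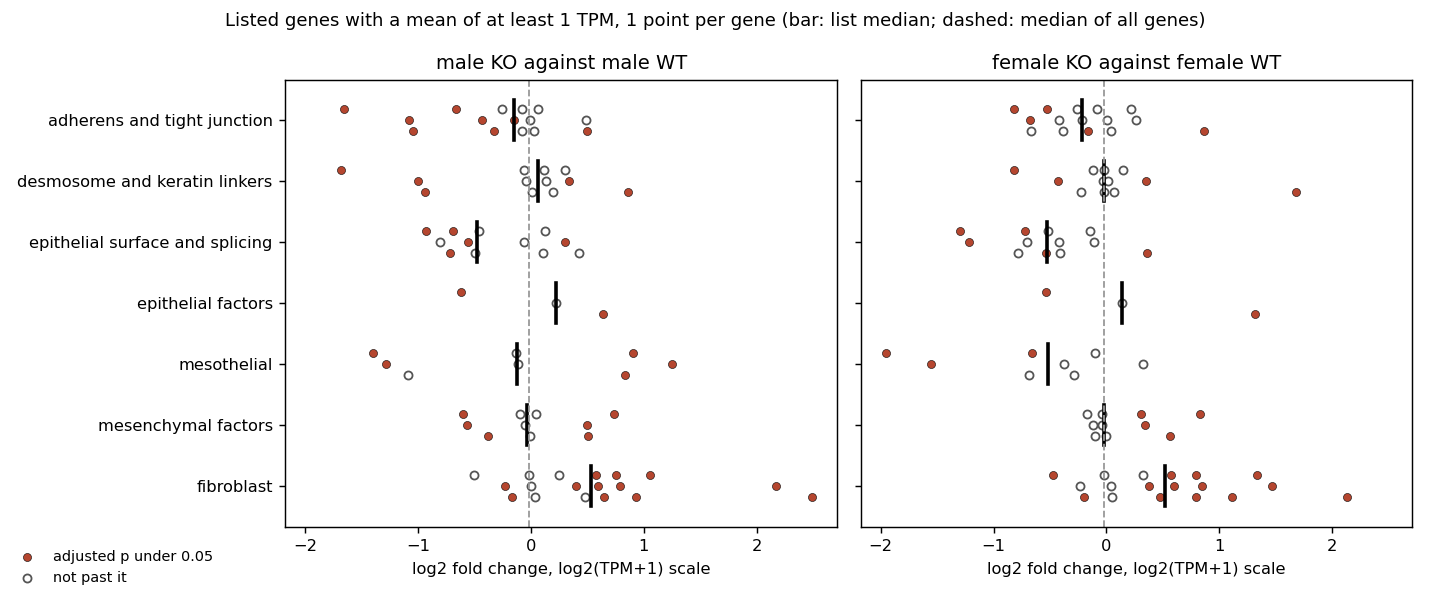
Log2 fold change of KO against WT on the log2(TPM+1) scale (horizontal axis) for listed genes that entered the fit, 1 point per gene, in males (left) and females (right), with filled points past an adjusted p of 0.05. Black bars give the medians of the lists plotted, from -0.47 to 0.53 in males and from -0.53 to 0.52 in females, and the dashed line gives the median of all genes.

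All 10 listed factors of the mesenchymal state were tested. In male KO 3 rose and 3 fell, and in female KO 4 rose and, without WT replicate 2, 1 fell. Snai1, which encodes Snail, rose from 102.8 ± 1.11 to 145.2 ± 6.66 TPM in male KO (0.49, limma adjusted p = 0.000442) and from 113.3 ± 0.908 to 144.1 ± 4.95 in female KO (0.34, limma adjusted p = 0.00218). Snai2, which encodes Slug, rose from 16.3 ± 1.60 to 27.8 ± 1.52 TPM in male KO (0.73, limma adjusted p = 0.00168). In female KO it was 0.56 (limma adjusted p = 0.0136, and 0.0521 and 0.0517 without KO replicate 1 or 3). Zeb2 rose in male KO (0.50, limma adjusted p = 0.00403) and Twist2 in female KO (0.83, limma adjusted p = 6.62e-05). Prrx1 fell in male KO (-0.60, limma adjusted p = 8.76e-04) and rose in female KO (0.30, adjusted p = 0.00236 by limma), and Tcf4 fell in males (-0.57, limma adjusted p = 0.00229). The list held genes that moved in both directions, with medians of -0.033 and -0.018.

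Of 19 fibroblast genes, 18 were tested. In male KO 10 rose and 2 fell, and in female KO 11 rose and 2 fell, with medians of 0.53 and 0.52. Those that fell were Cdh2 and S100a4 in males and Cdh2 and Lox in females. Leaving out any 1 male library left 1 that fell in males, S100a4. Cdh2 was -0.17 in male KO (limma adjusted p = 0.0488) and -0.47 in female KO (adjusted p = 0.00125 by limma). Lox was 0.65 in male KO (limma adjusted p = 1.34e-04) and -0.20 in female KO (adjusted p = 0.00779 by limma). Postn, which encodes the matrix protein periostin, rose from 122.7 ± 0.659 to 555.1 ± 19.6 TPM in male KO (2.17, limma adjusted p = 1.01e-06) and from 145.4 ± 1.01 to 639.4 ± 14.7 in female KO (2.13, limma adjusted p = 4.40e-07). Cdh11, a cadherin of mesenchymal cells, rose by 0.93 in male KO (limma adjusted p = 3.07e-05) and by 1.33 in female KO (adjusted p = 2.56e-05 by limma), and Pdgfrb by 1.06 in males (limma adjusted p = 4.33e-05). Col1a1, the most abundant of the list, rose by 0.60 in both sexes (limma adjusted p = 5.18e-04 in males and 7.09e-05 in females), and Vim passed in neither. Mmp2, a matrix metalloproteinase gene, rose from 25.6 ± 0.246 to 148.4 ± 4.18 TPM in male KO (2.49, limma adjusted p = 1.01e-06) and was -0.23 in female KO (limma adjusted p = 0.0573). S100a4, often used as a fibroblast marker, fell from 1129 ± 61.5 to 960.2 ± 6.85 TPM in male KO (-0.23, limma adjusted p = 0.00936) and rose from 240.6 ± 26.1 to 664.1 ± 43.0 in female KO (1.47, adjusted p = 2.17e-04 by limma). The summed TPM of the 19 genes ran from 11610 to 12800 in male WT, 14940 to 15880 in male KO, 9609 to 9756 in female WT and 12430 to 12770 in female KO. It was thus higher in KO than in WT libraries of the same sex, and its part in the keratin and mesothelial values was not tested.

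Markers of other cells were read beside these values. Kidney epithelial genes rose in male KO, 3 of 5 tested, with Pax8 at 34.0 ± 3.25 TPM against 0.240 ± 0.294 in male WT (4.84, limma adjusted p = 1.12e-05), and Cdh6 at 3.17 on the log2 scale (limma adjusted p = 1.36e-05). Wnt4 was 0.69 in male KO (limma adjusted p = 0.0354), lost without any 1 of the 6 libraries (adjusted p of at least 0.0538). None of the 5 passed in female KO, and Emx2, the most abundant of them by its mean over the libraries, passed in neither sex. The summed TPM of the 8 kidney genes was between 78.5 and 87.4 in male KO and between 12.7 and 24.8 elsewhere, so the group with the lowest Krt18, Epcam and Msln was also the group with the highest sum of kidney genes. Their part in the result was not tested. Of 8 endothelial genes Erg rose in male KO (1.71, limma adjusted p = 6.17e-04) and Kdr fell in female KO (-1.06, limma adjusted p = 0.00368), and their defining marker Cdh5 stayed below 0.1 TPM in every group mean. Of 8 leukocyte genes only Cd68 was tested and it passed in neither sex, with Ptprc below 0.1 TPM in every group mean. The summed TPM ranges of the endothelial genes were 3.83 to 5.54 in male WT, 10.95 to 13.1 in male KO, 5.39 to 6.93 in female WT and 2.66 to 3.16 in female KO.

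Muscle, neural and early embryonic lists were small. Des fell in female KO (-2.70, limma adjusted p = 2.95e-04) and Acta1 in male KO (-0.89, limma adjusted p = 0.00226), with Myod1 below 0.1 TPM in every group mean. Sox2 fell in male KO (-2.88, limma adjusted p = 7.19e-04) and rose in female KO (1.19, limma adjusted p = 0.00151), with Sox10 below 0.1 TPM in every group mean. Tubb3 was 0.34 in male KO (limma adjusted p = 0.0350), lost without any library but KO replicate 3 (adjusted p of at least 0.0748). Tead4, a factor of trophoblast that many cells also use, fell in male KO (-0.63, limma adjusted p = 0.00138), and Cdx2 was at 0 in all 12 libraries.

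The genes most like each of the 5 fitted genes were sought among 11554 other protein-coding genes by Pearson's r of log2(TPM+1) over the 12 libraries. For Krt18 these were Itga3 (r = 0.982), Tinagl1 (0.977) and Flt4 (0.974), and Itga3 was 40.7 TPM in male WT, 19.1 in male KO, 30.8 in female WT and 22.4 in female KO. For Msln they were Mab21l2 (0.987), Flt4 (0.985) and Nrn1 (0.980), so Flt4 was named for both genes. For Krt19 they were Xlr3b (0.988), Cavin2 (0.987) and Ifit1 (0.980), where Xlr3b was 8.15 TPM in male WT, 0.0779 in male KO, 1.32 in female WT and 0.0368 in female KO. For Epcam they were Micu3 (0.981), Trmt10c (0.975) and Nek2 (0.973). For Krt7 they were Hspb2 (0.880), Fkbp15 (0.864) and Uty (0.863). Uty is on the Y chromosome and was 11.6 TPM in male WT, 10.3 in male KO, 3.85 in female WT and 2.89 in female KO. Whether its female values hold reads of its X-linked relative Kdm6a was not tested, and the sex labels were not checked here. Krt7 and Uty were both higher in the male means. Highest values of r chosen among so many genes are large by selection, and they are listed as likeness only.

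Of the 46 listed genes named by rule, the male and female differences were themselves unequal for 26 (limma interaction, adjusted p under 0.05), beside 13.0% of all genes tested. These 46 were taken for their calls in 1 sex or the other, so the share is not read against the background.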

How the data were processed

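Polyadenylated RNA of 12 MEF libraries was sequenced, 3 in each of 4 groups given by the labels. The authors trimmed reads, quantified them with Salmon (version 1.10.1 in the submitters' processing notes) against GRCm38 and deposited TPM for 34866 genes. No column was left unused. Symbols came from GENCODE M21 (99.4% of identifiers matched). The methods name a target for the reads per sample but not the number each library reached, so no counting error could be attached to a value.

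Because the values are not counts, log2(TPM+1) of the 12504 genes averaging at least 1 TPM was fitted with limma 3.58.1 (R 4.3.3, trended variance), with Benjamini-Hochberg adjustment over all of them and calls under 0.05. KO and WT were compared within sex and the sexes within genotype in fits of 6 libraries, and the sex by genotype interaction over all 12. The scripts were tested on simulated data.

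The 8 genes and the 15 gene lists were chosen with earlier results of these data known, and 1 listed gene is not reported here. The rule named all 8 genes, up to 4 called genes with the largest log2 fold change per list and KO comparison, the 3 genes most correlated with each fitted gene, and the most abundant gene of each other cell list. Alternatives were another pseudocount, no filter or a stricter one, 2 other scalings, no trend, a replicate block, all libraries in 1 fit, and each library left out.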

Additional observations from a re-analysis of the deposited data

Results flagged for a closer look

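The interaction fit over 12 libraries tested whether the male and female KO differences of the listed genes were equal. Each result in this section is the male minus the female log2 fold change with its limma adjusted p, and no explanation was tested. Tjp1 (-0.55, 0.00319), Col1a2 (-0.50, 5.89e-05), Fbn1 (0.60, 8.31e-04), Cdh2 (0.30, 0.00665) and Lox (0.85, 1.87e-06) passed but are outside the 46 listed genes named by rule. The results below are those of these 46 that passed.

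Among genes of epithelial junctions, desmosomes and surface these were Cgn (-1.13, 0.00221), Jup (-0.52, 0.00746), Perp (-0.86, 0.0319), Itga6 (-0.87, 1.70e-05), Pkp1 (-0.82, 0.00832), Ezr (-0.57, 0.0186) and Cd24a (0.64, 6.04e-04). In that list Cd24a was the one whose difference was above 0, with 79.4 ± 7.85 TPM in male WT, 85.2 ± 3.67 in male KO, 109.5 ± 3.96 in female WT and 75.1 ± 1.73 in female KO (SD, n = 3 each). The Perp result did not pass with genes of low values kept (limma adjusted p = 0.0525), with the replicate block (0.0516), or without male WT replicate 2 or 3, male KO replicate 3, female WT replicate 1 or 2 or female KO replicate 3 (adjusted p from 0.0682 to 0.0774).

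Among mesothelial genes they were Wt1 (2.80, 4.15e-05), Aldh1a2 (2.79, 2.98e-05), Gata6 (1.01, 0.0158) and Sulf1 (-0.63, 5.94e-04). Wt1 and Aldh1a2 passed in opposite directions in the 2 sexes, the male call of Aldh1a2 not without WT replicate 3 or KO replicate 1 or 3.

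Among mesenchymal factors and fibroblast genes they were Zeb2 (0.54, 0.00365), Twist2 (-0.89, 2.09e-06), Prrx1 (-0.90, 9.77e-06), Tcf4 (-0.57, 0.00110), Cdh11 (-0.40, 0.00104), Mmp2 (2.72, 2.11e-09) and S100a4 (-1.70, 1.16e-06). Prrx1 and S100a4 passed in opposite directions in the sexes, as did Lox outside the rule. Mmp2 passed in male KO and was opposite in sign in female KO.

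Among markers of other cell types they were Acta1 (-0.97, 0.00277), Erg (1.70, 0.00135), Kdr (0.93, 0.00625), Des (2.61, 3.26e-05), Pax8 (5.04, 3.50e-06), Tubb3 (0.53, 0.0152), Sox2 (-4.08, 1.10e-05) and Cdh6 (3.31, 6.78e-07).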

How the results depend on the processing

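The values of the 5 fitted genes kept their sign under each alternative run, except Krt7, which came to 0.0060 between male KO and male WT and to -0.11 in the interaction at the far end of its range. A pseudocount of 0.1 moved 14 of 25 values by more than the spread between replicates, and leaving out 1 library moved 1. Of 63 calls of listed genes, 12 were lost without at least 1 library, and none reversed under any alternative run.

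No source says that replicate numbers mark pairs, and same-numbered libraries deviated from their group means with correlations from -0.057 to 0.078 in 12 pairs, so they were not taken as pairs. With the replicate block the calls were 2366 of 12504 genes in males (2707 without it), 670 in females (1434), 1114 between WT sexes (1603), 1397 between KO sexes (2070) and 1518 for the interaction (1629), 9 of the 63 listed calls were lost, and 7 in place of 11 epithelial genes fell in female KO.

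Leaving out 1 library gave 1813 to 2318 calls in males, 774 to 835 in females, 1037 to 1243 between WT sexes, 1328 to 1824 between KO sexes and 1353 to 1559 for the interaction. The other alternatives stayed within 1.5 times of the calls given. Without the filter, 22401 genes were tested and Upk3b had a log2 fold change of -0.59 and Krt8 of -0.33 in male KO. Krt8, Cdh1 and Upk3b lie low, and their TPM cannot be turned into reads here.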
